A study of Mus musculus with 8 samples.

Results

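The AP-1 transcription factor genes were followed in primary mouse astrocytes in which Gstm1, the gene for a cytosolic glutathione S-transferase of the mu class, had been knocked down. The members were the 10 genes with the symbols Fos, Fosb, Fosl1, Fosl2, Jun, Junb, Jund, Atf3, Maff and Batf3, taken by symbol from the 54146 genes of each library. RNA was sequenced from 8 libraries in 4 groups of 2 biological replicates: unstimulated control KD, unstimulated GSTM1 KD, and each of these given TNF-α at 50 ng/ml for 6 h. The cells of all groups were cortical glia of newborn C57BL/6 mice, cultured as mixed glia, infected with a lentivirus that carried a short hairpin RNA against Gstm1 or a non-silencing one, selected in puromycin and depleted of CD11b-positive cells. The model therefore rests on a bulk culture, 1 stimulation time and a non-silencing control that had been through the same infection and selection.

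AP-1 proteins are basic leucine zipper factors that bind DNA as pairs. FOS proteins cannot pair with one another and need a JUN partner, whereas JUN proteins also pair among themselves, and the pairs bind the TPA response element (TRE) or the related cyclic AMP response element (CRE). TNF-α is known to activate the kinases JNK, p38 and ERK, which act on JUN and FOS proteins and on the promoters of their genes, and in astrocytes AP-1 genes are among the early genes that respond to cytokines and growth factors. ATF3 is a stress-inducible factor that can repress or activate, MAFF is a small MAF protein without an activation domain, and BATF3 pairs with JUN proteins and works with interferon regulatory factors.

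The libraries summed to between 17349676 and 34434633 expected counts, and 19434 to 21610 genes had a count. Together the 10 genes took 0.0818% to 0.124% of the counts of a library. The target of the hairpin, Gstm1, had 8153 and 9644 counts in unstimulated control KD libraries, where the GSTM1 KD libraries held 676 and 626. After TNF-α it had 4851 and 6492 counts, beside 527 and 405. These counts are not scaled for the library totals. In TPM (a transcript level scaled by gene length and to a common total) Gstm1 was at 373 and 619 in unstimulated control KD. It was at 338 and 627 TPM there after TNF-α. In GSTM1 KD it was at 49.74 and 53.75 TPM unstimulated and at 40.45 and 39.36 TPM after TNF-α. Summed TPM of 10 astrocyte markers was 1793 and 1772 in replicate 1 of control KD without and with TNF-α, and 3913 to 6236 in the other 6 libraries. The 12 microglial markers summed to 49.5 to 60.7 TPM in every library, with P2ry12 at 3 counts or fewer throughout. The 8 fibroblast and mural cell markers summed to 3100 to 4031 TPM in the 4 control KD libraries and to 1611 to 2189 TPM in the 4 GSTM1 KD libraries. In bulk RNA, fewer cells of a type and less RNA per cell cannot be told apart.

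The sequences just before the start sites of Jun, Junb and Fos are shown because Jun and Junb were each called in 1 knockdown comparison and Fos is the founding partner of Jun. Each run is the 250 bases before the RefSeq start site on GRCm38.p6, written 5′ to 3′ on the strand of the gene. Jun lies on the minus strand (window chr4:95052223-95052472), Junb on the minus strand (chr8:84978749-84978998) and Fos on the plus strand (chr12:85473640-85473889). Capitals mark matches, on either strand, to the TRE TGACTCA, the CRE TGACGTCA, the CRE half-site TGACG, which lies inside the CRE, the 8-base CRE-type site TGACNTCA, which includes the CRE, the CArG box, the kappaB site and the amino acid response element TGATGCAAT.
Jun: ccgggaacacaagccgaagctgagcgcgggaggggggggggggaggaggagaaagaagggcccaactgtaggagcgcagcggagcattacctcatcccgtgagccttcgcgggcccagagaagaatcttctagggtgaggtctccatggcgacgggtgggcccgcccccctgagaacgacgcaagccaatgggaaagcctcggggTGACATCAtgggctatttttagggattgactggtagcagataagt
Junb: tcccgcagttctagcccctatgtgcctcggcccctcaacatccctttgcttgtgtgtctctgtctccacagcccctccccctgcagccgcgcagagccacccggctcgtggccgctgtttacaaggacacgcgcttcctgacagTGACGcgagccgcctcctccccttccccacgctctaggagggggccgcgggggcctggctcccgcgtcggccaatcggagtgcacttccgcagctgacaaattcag
Fos: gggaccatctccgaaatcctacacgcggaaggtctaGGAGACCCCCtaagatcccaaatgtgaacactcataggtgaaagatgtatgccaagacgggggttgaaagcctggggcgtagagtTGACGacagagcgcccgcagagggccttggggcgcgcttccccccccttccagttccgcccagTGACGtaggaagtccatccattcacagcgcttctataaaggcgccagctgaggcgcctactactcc

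Jun held the CRE-type match TGACATCA, 45 to 38 bases before its start, and 7.49% of 32851 windows of the same length held a match to that motif. Junb held a single CRE half-site 106 to 102 bases before its start, and Fos held 2 half-sites, 129 to 125 and 66 to 62 bases before its start, with 17.8% of all windows holding one. Atf3, called in both knockdown comparisons, had a half-site 7 to 3 bases before its start, in a window that overlaps one of its untranslated regions and is not printed. That RefSeq start lies 34706 bases from the annotated start of the gene. Fosb had a half-site 60 to 56 bases before its start. Matches to the kappaB motif, found in 7.25% of windows, lay 214 to 205 bases before the start of Fos, 188 to 179 before that of Fosb, and 182 to 173 and, overlapping on the other strand, 181 to 172 before that of Fosl2. No window of a member held a TRE, which 4.46% of all windows did. RefSeq windows of Maff start at several sites, and one of them, before the start at position 79347520 of chromosome 15, held a full CRE 29 to 22 bases upstream, a motif of 1.55% of windows. Another, before position 79348402, held a CRE half-site (122 to 118), a CRE-type match (45 to 38) and a kappaB match (70 to 61). The windows of Batf3 and Jund and the remaining one of Maff held none of these motifs. The start site used for Jund lies 1210 bases from the annotated start of the gene, and that of Batf3 567 bases. The windows of Batf3, Fosl2 and Fosb, and that of Maff before position 79348402, also overlap untranslated regions of their genes. A match or its absence in these windows is a description of letters only.

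By level in TPM, the JUN family stood highest. In control KD at the basal level Jund averaged 173 TPM (SD 44.9, n = 2) and Jun 151 TPM (SD 9.28), and their ranges overlapped. Maff followed at 98.6 TPM, Junb at 75.2, Fosl2 at 55.5, Fosl1 at 35.8, Fos at 22.2, Atf3 at 10.4, Fosb at 4.38 and Batf3 at 1.19, each apart from its neighbour in both libraries. In GSTM1 KD at the basal level Jun led with 214 TPM (SD 1.68) and Junb, at 47.2 TPM, stood below Fosl2 at 58.5. After TNF-α stimulation Junb was first in both, with 284 TPM (SD 24.2) in control KD and 238 TPM (SD 9.59) in GSTM1 KD. Fos, at 10.3 TPM in control KD and 13.1 in GSTM1 KD, then stood below Atf3 at 22.2 and 32.0.

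Seen as shares of their summed TPM, the 3 JUN genes made up between 63.6% and 67.6% of the AP-1 messenger RNA in all 4 groups, as group means. Within that family the proportions differed between the groups. Junb held 12.1% (SD 1.81) in control KD at the basal level and 30.1% (SD 0.254) after TNF-α, and in GSTM1 KD it held 7.04% (SD 0.480) and 25.8% (SD 0.0199). Jun held 24.2% and 15.8% in control KD, basal level first, while its shares with GSTM1 KD were 32.1% and 22.9%. The ratio of Junb to Jun was 0.498 (SD 0.0505) in unstimulated control KD and 1.90 (SD 0.0533) with TNF-α. For GSTM1 KD it was 0.221 (SD 0.0297) and 1.13 (SD 0.0312), so that in both states the control KD libraries had the higher ratio. The sum over all 10 genes rose from 578 and 676 TPM to 880 and 1005 TPM in control KD, and from 641 and 696 TPM to 898 and 949 TPM in GSTM1 KD, the 2 libraries of a group being given in order of replicate.

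**Figure D1:**
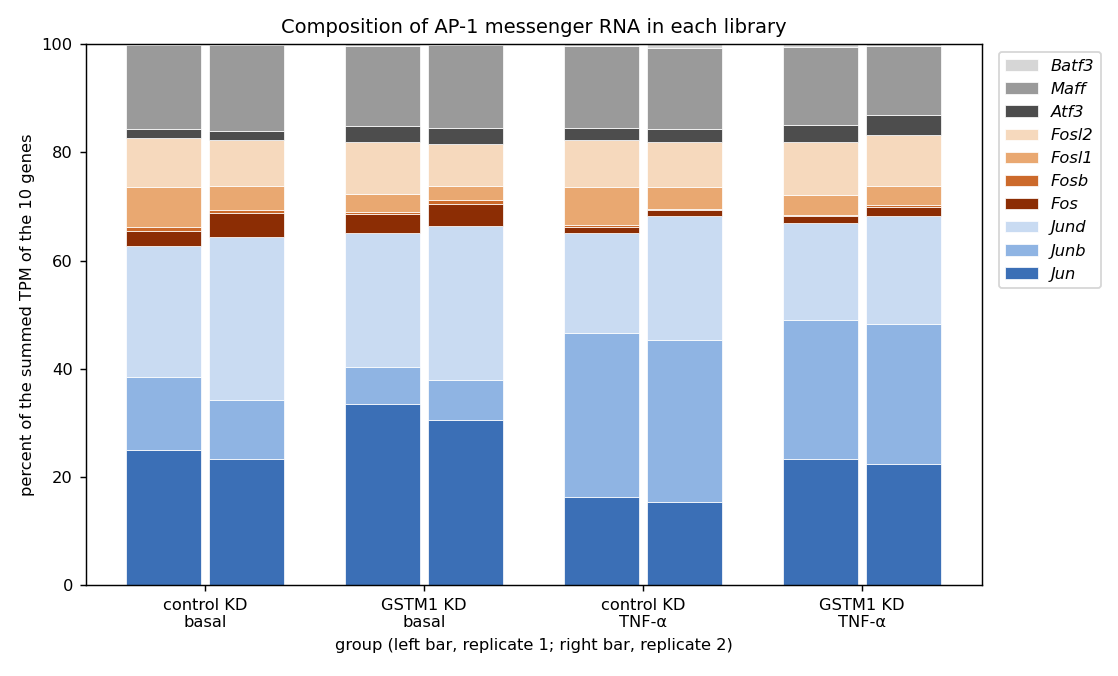
Percent of the summed TPM of the 10 AP-1 genes (vertical axis) held by each gene in each of the 8 libraries (bars, grouped on the horizontal axis by knockdown and stimulation; left bar replicate 1, right bar replicate 2). The band of Junb averages 12.1% and 7.04% at the basal level and 30.1% and 25.8% after TNF-α stimulation, control KD first.

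The first question was how the AP-1 genes differed between GSTM1 KD and control KD astrocytes at the basal level. Junb was lower and Atf3 was higher in GSTM1 KD, and the other 8 did not pass the test (quasi-likelihood test of edgeR, p-values adjusted by Benjamini-Hochberg over 14899 genes, threshold 0.05). Of all genes tested, 4.6% were called higher and 5.62% lower, beside 1 of 10 AP-1 genes in each direction. The median log2 fold change was 0.0042 over the 10 genes and −0.0020 over all genes tested. All 10 passed the filter on low counts.

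Junb, whose protein pairs with FOS proteins and can hold back the activity of JUN, stood at 71.7 and 66.8 CPM in control KD and at 37.9 and 45.3 CPM in GSTM1 KD (CPM, counts scaled by library size and TMM factor; n = 2 in each group). Both GSTM1 KD libraries were below both control KD libraries. The difference was a log2 fold change of −0.74 (SE 0.13), a level 1.67-fold lower, with an adjusted p of 0.0296 in edgeR.

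Atf3 stood at 9.98 and 9.89 CPM in control KD and at 17.5 and 19.8 CPM in GSTM1 KD, so that the groups did not overlap. It was higher by 0.91 on the log2 scale (SE 0.16), 1.88-fold, with an adjusted p of 0.0299 in edgeR. Without replicate 1 of control KD, the library with the lower astrocyte marker sum, Junb was at −0.69 (adjusted p = 0.0152) and Atf3 at 0.91 (adjusted p = 0.0225). Such a fit leaves 1 control library, assumed to vary like the GSTM1 KD pair, from which all of the spread then comes.

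Fosl1 and Jun did not pass the threshold in the main edgeR fit. Fosl1, a FOS family member that has no activation domain of its own, was at 36.7 and 25.1 CPM in control KD, beside 17.4 and 15.0 CPM with GSTM1 KD. The log2 fold change was −0.93 (SE 0.22, adjusted p = 0.0538 in edgeR). Its value in control KD was larger in the library with the lower astrocyte marker sum, and the log2 fold change was −0.63 without that library (adjusted p = 0.0543) and −1.19 without the other, replicate 2 (adjusted p = 0.000684). Jun was at 251 and 271 CPM against 355 and 352, with no overlap, and the log2 fold change of 0.44 (SE 0.11) had an adjusted p of 0.0648, or 0.48 and 0.0132 without replicate 2 of control KD. Both genes passed the threshold in DESeq2, where the adjusted p was 0.00269 for Fosl1 and 0.0244 for Jun. They also passed in edgeR with a replicate block (adjusted p = 0.000448 and 0.00815, in the same order). With all 8 libraries in edgeR the adjusted p was 0.0394 and 0.0202.

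Of the remaining members Fos, the immediate early gene, was at 16.3 and 27.8 CPM in control KD, beside 22.9 and 29.7 CPM with GSTM1 KD. Fosb, its close relative, was at 7.58 and 8.25 against 4.25 and 8.97 CPM. Fosl2 (193 and 211 against 219.8 and 192 CPM), Jund (119 and 170.3 against 127 and 158 CPM) and Maff (90.9 and 107 against 91.1 and 102 CPM) likewise overlapped between the groups. Fos was at 0.68 without replicate 2 of control KD (adjusted p = 0.0238) and at −0.085 without replicate 1 (adjusted p = 0.795), each time with a single control library. Batf3 had only 6 to 16 counts in these 4 libraries, and its log2 fold change of 0.63 (SE 0.65) did not pass the test.

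Leaving out either GSTM1 KD library ended both calls: Junb was then at −0.61 (adjusted p = 0.193, without replicate 1) and −0.88 (adjusted p = 0.168, without replicate 2), and Atf3 at 1.00 (adjusted p = 0.124) and 0.81 (adjusted p = 0.251). In these 2 fits only 1 and 3 genes of all those tested were called. The summed fibroblast and mural markers were lower in GSTM1 KD, as given above, and the largest part of that sum was Acta2 (3587 and 3165 against 1831 and 1497 CPM). Of the 6 tested, Acta2 and Col1a2 were lower and none was higher, the median log2 fold change was −0.18, with Pdgfrb at 0.46 and Rgs5 at 1.64, and Kcnj8 was at 3 counts or fewer in every library. Of the 10 astrocyte markers S100b was lower and none was called higher, with a list median of 0.51 and Gfap at 1.10 (adjusted p = 0.234), Glul at 0.78 (adjusted p = 0.0875) and Aldoc at 1.11 (adjusted p = 0.227). Of 6 oligodendrocyte lineage markers tested Olig2 was lower (122 and 150.2 against 75.9 and 75.7 CPM), with a list median of −0.59 and Mog at 3 counts or fewer. Of 3 ependymal and choroid plexus markers tested Folr1 was higher (0.481 and 0.156 against 1.55 and 2.76 CPM), with a list median of 2.67 and Tmem212 at 3 counts or fewer. The summed TPM of these lists was 533 and 596 against 441 and 423 for the first, and 76.3 and 118 against 103 and 119 for the second. Of the 12 microglial markers 6 were tested, with 0 called higher, 0 called lower and a list median of −0.90, although their summed TPM was similar in all libraries. The part of these cells in the differences of the AP-1 genes was not tested.

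**Figure D2:**
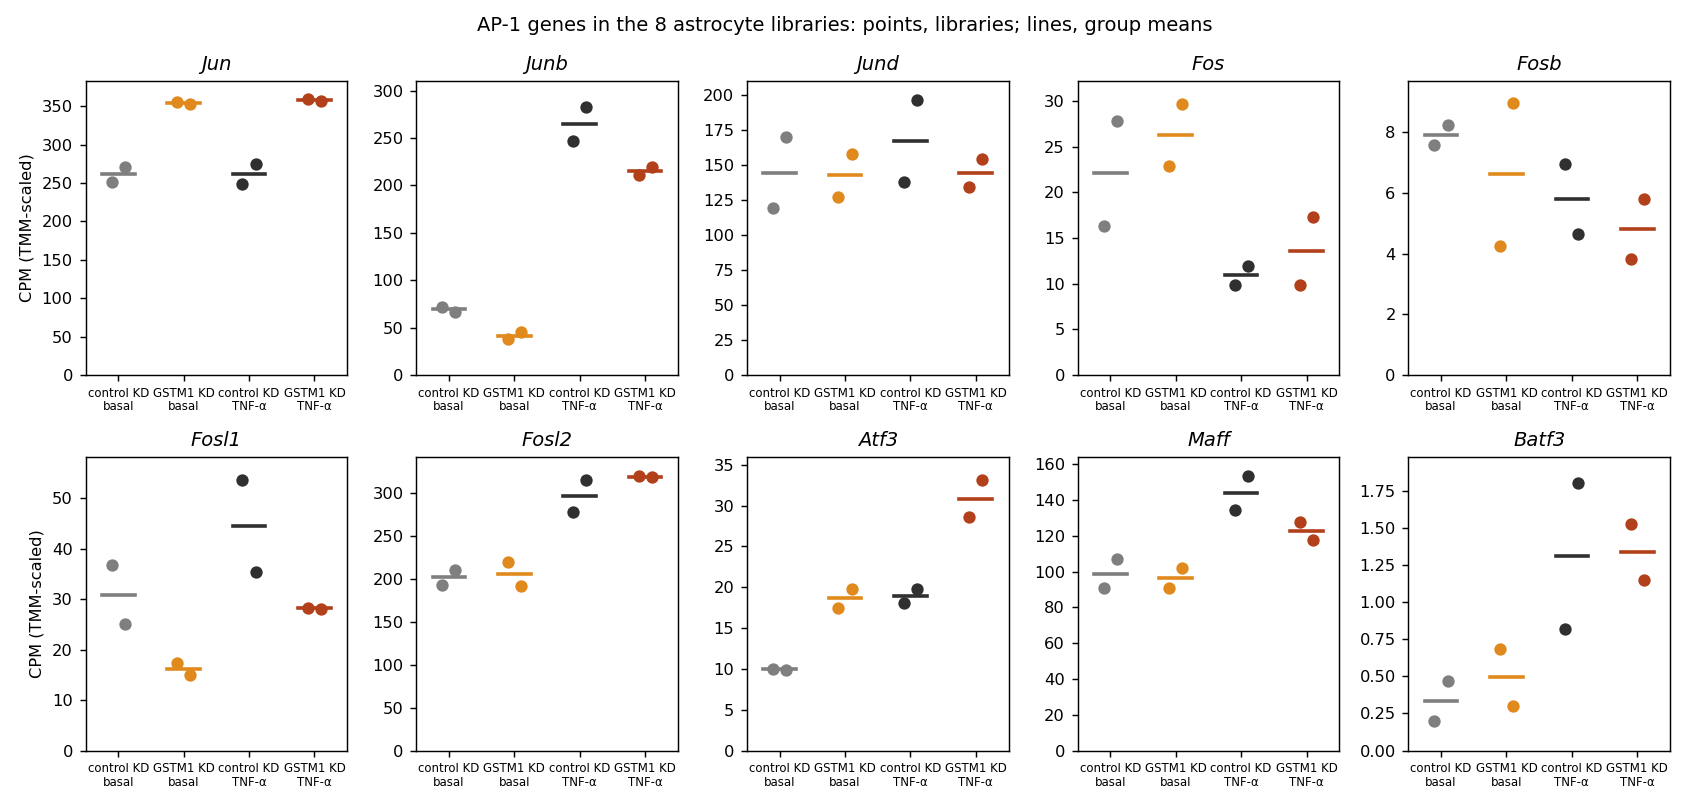
CPM (vertical axes, from 0, one panel for each of the 10 AP-1 genes) in the 8 libraries, with the 4 groups on the horizontal axes; points are libraries and lines are group means of 2 libraries. The Junb points lie between 37.9 and 71.7 CPM at the basal level and between 211 and 283 CPM after TNF-α, while the Jun points of GSTM1 KD (352 to 359 CPM) lie above those of control KD (249 to 275 CPM) in both states.

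The same comparison after TNF-α stimulation asked whether the stimulated cells differed. In the main edgeR fit Jun and Atf3 were higher in GSTM1 KD and no member was called lower, beside 7.26% of all 14593 genes tested called higher and 8.92% called lower. Jun, a main partner of FOS proteins and the target of JNK, was at 249 and 275 CPM in control KD and at 359 and 357 CPM in GSTM1 KD. The 2 GSTM1 KD libraries stood above both control KD libraries, by 0.43 on the log2 scale (SE 0.11), 1.35-fold, with an adjusted p of 0.0482 in edgeR.

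Atf3 was at 18.0 and 19.7 CPM in control KD and 28.6 and 33.1 CPM in GSTM1 KD, without overlap. Its log2 fold change was 0.68 (SE 0.14), 1.60-fold, with an adjusted p of 0.0317 in edgeR. The effective length of Atf3, which depends on the transcripts RSEM assigned, was 1505 and 1372 bases in control KD after TNF-α and 1708 and 1657 bases in GSTM1 KD. With effective lengths as offsets the log2 fold change was 0.47 (adjusted p = 0.111) for Atf3 and 0.44 (adjusted p = 0.0517) for Jun, and neither was called.

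Junb was at 247 and 283 CPM in control KD and at 211 and 219 CPM in GSTM1 KD after TNF-α. The groups did not overlap, but the log2 fold change of −0.32 (SE 0.11) did not pass the test, with an adjusted p of 0.0977 in edgeR. Fosl1 was at 53.5 and 35.4 CPM in control KD and at 28.3 and 28.0 CPM in GSTM1 KD. Its log2 fold change was −0.69 (SE 0.21, adjusted p = 0.0790 in edgeR), and it was called lower by DESeq2 (adjusted p = 0.0264). In edgeR it was also called lower without a filter on low counts (adjusted p = 0.000155) and with a replicate block (adjusted p = 0.0183). The 2 GSTM1 KD libraries were close together and below both control KD libraries, which differed from each other by more.

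Maff, the partner of the factors NFE2L2 and BACH1, was at 134 and 153 CPM against 128 and 118 CPM in GSTM1 KD (log2 fold change −0.25, SE 0.11, adjusted p = 0.163). Fosl2 was at 278 and 316 CPM against 319.8 and 319 CPM, apart by a small margin (log2 fold change 0.081, SE 0.11, adjusted p = 0.634). Jund, Fos, Fosb and Batf3 overlapped between the groups, with log2 fold changes between −0.30 and 0.28.

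Here too the calls needed both GSTM1 KD libraries: without replicate 1 or 2 of that group Jun was at 0.43 or 0.44 (adjusted p = 0.256 or 0.322) and Atf3 at 0.80 or 0.58 (adjusted p = 0.113 or 0.240), in fits that called 0 and 94 genes of all tested and left 1 library in that group. Without replicate 1 of control KD Jun was at 0.36 (adjusted p = 0.0612) and no longer called, Atf3 was at 0.62 (adjusted p = 0.0345), and Junb, at −0.41, and Jund, at −0.46, were called lower (adjusted p = 0.0352 and 0.0374). Fosl1 was then at −0.35 (adjusted p = 0.0991), and at −0.95, called lower, without replicate 2 of control KD (adjusted p = 0.00129). Of the 6 fibroblast and mural markers tested Col1a2 and Acta2 were lower and Pdgfrb was higher in GSTM1 KD (list median −0.054), and of the 10 astrocyte markers S100b was lower and none was called higher (list median 0.28, with Gfap at 1.08 and Aldh1l1 at 1.22). Olig1 and Olig2 were lower (list median −0.47) and Folr1 was higher (list median 2.78). Of the 5 microglial markers tested 0 were called higher and 0 lower (list median −0.68). Their part in these values was not tested.

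The next question was how the members responded to TNF-α in each knockdown. Junb rose most steeply among those called in either, Atf3 also rose in both, and Fosl2 passed the threshold in GSTM1 KD only. These responses were fitted over all 8 libraries and 15332 genes. In control KD 2 of 10 members were called higher and 0 lower, beside 2.1% and 0.528% of all genes, and in GSTM1 KD 3 and 0, beside 2.35% and 0.294%. The median log2 fold change of the 10 was 0.53 in control KD, with 0.49 for GSTM1 KD, while that of all genes was −0.021 and −0.0071.

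Junb rose from 71.7 and 66.8 CPM to 247 and 283 CPM in control KD, 3.83-fold (log2 fold change 1.94, SE 0.12, adjusted p = 0.000589 in edgeR). In GSTM1 KD it rose from 37.9 and 45.3 CPM to 211 and 219 CPM, 5.18-fold (log2 fold change 2.37, SE 0.12, adjusted p = 0.000268). Both calls held without any 1 of the 4 libraries compared, with log2 fold changes of 1.85 to 2.03 in control KD and 2.25 to 2.51 in GSTM1 KD.

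Atf3 rose from 9.98 and 9.89 CPM to 18.0 and 19.7 CPM in control KD (log2 fold change 0.93, SE 0.13, adjusted p = 0.0138 in edgeR). In GSTM1 KD it rose from 17.5 and 19.8 CPM to 28.6 and 33.1 CPM (0.72, SE 0.13, adjusted p = 0.0319). In CPM the level in GSTM1 KD at the basal level was thus close to that of control KD after TNF-α. In TPM these 2 groups did not overlap, at 17.9 and 20.3 against 20.4 and 23.9. Their effective lengths for Atf3 were 1756 and 1742 against 1505 and 1372 bases. The effective length of Atf3 was 1750 and 1553 bases in control KD at the basal level, above the 1505 and 1372 bases after TNF-α. With effective lengths as offsets the control KD response was 1.12 (adjusted p = 0.0141) and that of GSTM1 KD 0.79 (adjusted p = 0.0517).

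Fosl2, the FOS family member with the highest TPM in every group, went from 193 and 211 CPM to 278 and 316 CPM in control KD, a log2 fold change of 0.56 (SE 0.11) whose adjusted p was 0.0508 in edgeR. In GSTM1 KD it rose from 219.8 and 192 CPM to 319.8 and 319 CPM, by 0.63 (SE 0.11, adjusted p = 0.0310). The difference between the 2 responses was 0.078 (SE 0.16) and did not pass the test.

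Leaving out 1 library ended the calls of Fosl2 and Atf3 in GSTM1 KD, with adjusted p of 0.118 to 0.255 and 0.0968 to 0.269 over the 4 libraries, while the log2 fold changes were 0.54 to 0.74 and 0.62 to 0.82. The call of Atf3 in control KD was lost without replicate 1 or 2 of the basal level (adjusted p = 0.0573 and 0.0686) or replicate 2 of TNF-α (0.0715) and remained without replicate 1 of TNF-α (0.0365), and its log2 fold change was 0.88 to 0.99 in these fits.

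The opposite direction appeared for Fos and Fosb, without passing the test in the main edgeR fit. Fos, whose message is known to rise and fade within hours of a stimulus, was at 16.3 and 27.8 CPM before and 9.86 and 11.97 CPM after TNF-α in control KD. In GSTM1 KD it was at 22.9 and 29.7 CPM before and 9.79 and 17.2 CPM after. The basal and stimulated libraries did not overlap in either knockdown, with log2 fold changes of −1.01 (SE 0.34, adjusted p = 0.240) and −0.96 (SE 0.34, adjusted p = 0.307). Fosb was at −0.44 (SE 0.38) and −0.46 (SE 0.39), and its GSTM1 KD libraries overlapped.

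Jun and Jund did not move by more than their errors. Jun had log2 fold changes of 0.0020 (SE 0.091) in control KD and 0.018 (SE 0.091) in GSTM1 KD, and its sign changed when only the library size was used for scaling (−0.030 and −0.027). For Jund, the most constant JUN gene in most cell types, the values were 0.21 (SE 0.23) and 0.017 (SE 0.23), the latter −0.027 with library size alone. Maff went from 90.9 and 107 CPM to 134 and 153 CPM in control KD and from 91.1 and 102 to 128 and 118 CPM in GSTM1 KD, and the groups did not overlap (0.54, adjusted p = 0.0722, and 0.35, adjusted p = 0.302).

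Fosl1 had log2 fold changes of 0.53 (SE 0.24, adjusted p = 0.437) in control KD, where the libraries overlapped, and 0.80 (SE 0.24, adjusted p = 0.218) in GSTM1 KD, where they did not. In GSTM1 KD edgeR called it higher with only the 4 libraries of that knockdown (adjusted p = 0.0229) and with a replicate block (adjusted p = 0.0304). It was also called there without a filter on low counts (adjusted p = 9.08e-05), but not in DESeq2 (adjusted p = 0.0629). Batf3 had 7 and 12 counts before and 19 and 30 counts after TNF-α in control KD, and 16 and 6 before and 33 and 20 after in GSTM1 KD. All stimulated libraries were above the basal ones in CPM, yet with so few counts the log2 fold changes of 1.98 (SE 0.62) and 1.41 (SE 0.61) had adjusted p of 0.209 and 0.467 in edgeR.

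**Figure D3:**
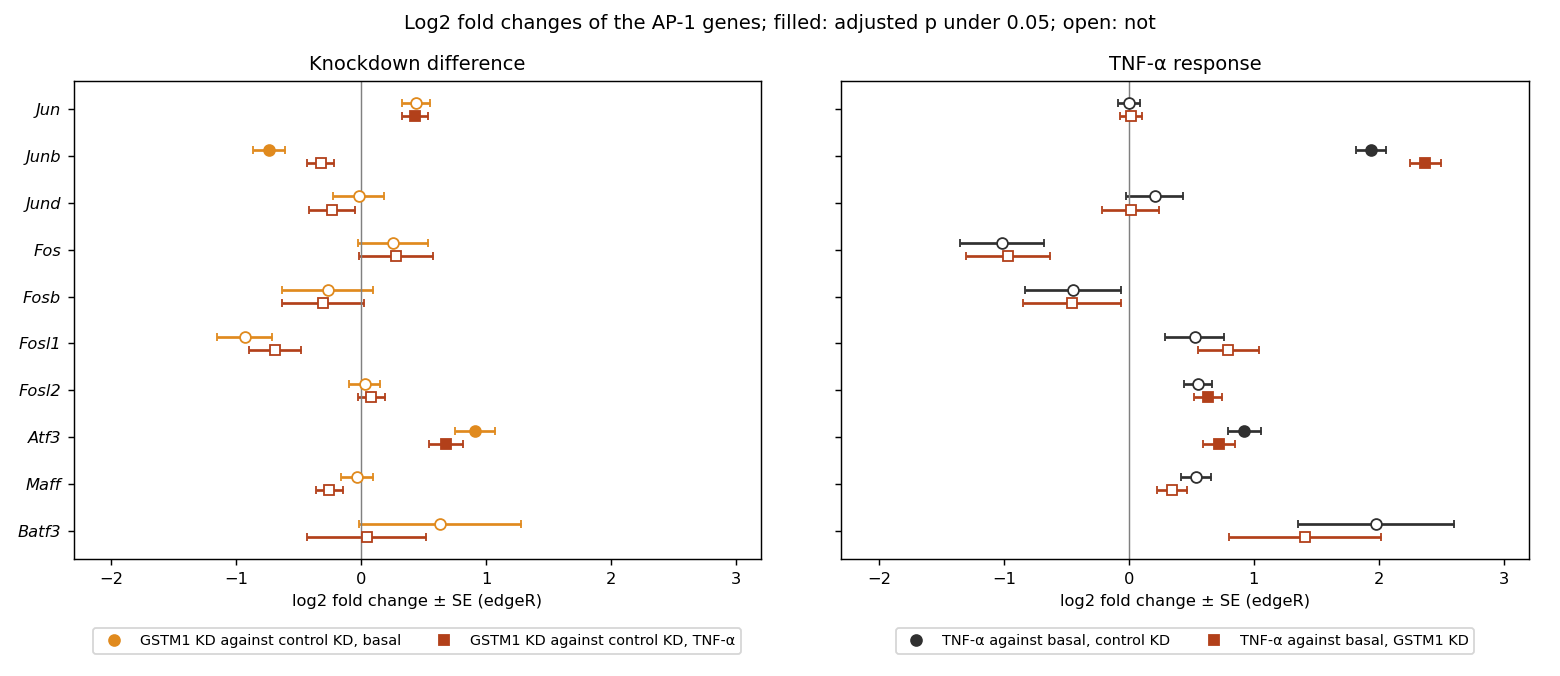
Log2 fold changes with their SE from edgeR (horizontal axes) for the 10 AP-1 genes (vertical axis), GSTM1 KD against control KD on the left and TNF-α against the basal level on the right; filled symbols passed an adjusted p of 0.05. Junb lies at −0.74 and −0.32 on the left and at 1.94 and 2.37 on the right, and the error bars of Batf3 are the widest.

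Whether the response to TNF-α differed between the knockdowns was tested as the interaction over all 8 libraries. In edgeR 0 of 10 members and 0 of 15332 genes (0%) passed the threshold, and 295 genes had an unadjusted p under 0.05. DESeq2 called 24 genes, among them 0 members. Junb, with a response larger by 0.44 on the log2 scale in GSTM1 KD (SE 0.16), was the only member with an unadjusted p under 0.05 (0.0317, adjusted p = 1.00). For the others the difference lay between −0.57 (Batf3, SE 0.87) and 0.27 (Fosl1, SE 0.34).

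Reads of 4 members could be shared with a gene whose exons overlap on the opposite strand in the GENCODE M21 annotation of GRCm38, since the library kit kept the strand but whether the counting used it is not given in the sources used here. Junb (chr8:84974484-84978718, minus strand) overlaps Prdx2, which was at 257 to 320.1 CPM with log2 fold changes of 0.073 and 0.088 after TNF-α in control KD and GSTM1 KD. Jun (chr4:95049034-95052222, minus strand) overlaps Junos, with 6 to 21 counts a library. Fosl1 (chr19:5447547-5455946, plus strand) overlaps Ccdc85b, whose log2 fold changes in GSTM1 KD were −0.28 without and 0.086 with TNF-α. Jund (chr8:70698949-70700616, plus strand) overlaps Gm11175. Atf3 spans chr1:191170296-191218039 on the minus strand and has no exon shared with another gene. The expected counts of Jun and Jund were not whole, so some of their reads were divided among several places.

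Around the members, the partners and regulators of AP-1 were described from fixed lists. Like the members, these lists lost their calls at the basal level without either GSTM1 KD library, and after TNF-α without replicate 1 of GSTM1 KD. Without replicate 2 only 1 kinase and 1 textbook target kept a call there. Of the 7 tested among 11 other AP-1 and MAF family genes, 0 passed in unstimulated GSTM1 KD cells and 1, Maf, was lower in stimulated ones (log2 fold change −0.63, adjusted p = 0.0452 in edgeR), beside 8.92% of all genes called lower there. Maf was also the only one of them called in a response, higher after TNF-α in control KD (0.73, adjusted p = 0.0375), as 2.1% of all genes were, where this list had 0 or 1 call with 1 library left out. Atf2, a CRE-binding partner of JUN, had log2 fold changes of −0.013 and 0.012 in GSTM1 KD and of 0.022 and 0.071 after TNF-α, and did not pass the test.

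Among 5 tested partners and competitors of small MAF proteins, Nfe2l1, a proteasome and stress regulator, was lower in unstimulated GSTM1 KD cells (573 and 553 against 296 and 268 CPM, log2 fold change −0.998, adjusted p = 0.0183). After TNF-α Nfe2l1 (−1.08, adjusted p = 0.0111) and Bach1, a repressor that binds with small MAF proteins (−0.94, adjusted p = 0.0187), were lower. Bach1 rose after TNF-α by 1.32 in control KD (adjusted p = 0.00609), with a rise of 0.94 for GSTM1 KD (adjusted p = 0.0196), and Nfe2l3 rose in control KD (1.60, adjusted p = 0.0475). Of all genes, 5.62% and 8.92% were called lower in the knockdown comparisons, and 2.1% and 2.35% higher in the responses. With 1 library left out this list had 1 call in the response of control KD and 0 in the other response.

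Of 16 kinases and factors that act on AP-1 genes or proteins, 2 were higher and 2 lower in unstimulated GSTM1 KD cells, and 1 was higher and 4 were lower in stimulated ones. Of all genes 4.6% were called higher and 5.62% lower in the first comparison, and 7.26% and 8.92% in the second. Mapk7, the kinase ERK5, had 54.8 and 52.9 CPM in unstimulated control KD, beside 17.6 and 17.4 CPM with GSTM1 KD (−1.62 on the log2 scale, adjusted p = 0.0132) and at −1.80 after TNF-α (adjusted p = 0.00981). Map2k4, a kinase that activates JNK, was higher by 0.86 and 0.80 (adjusted p = 0.0178 and 0.0129), and Map3k7, the kinase TAK1, was lower by 0.66 and 0.58 on the log2 scale (adjusted p = 0.0263 and 0.0223). Map3k5, known as ASK1, was higher at the basal level (1.12, adjusted p = 0.0353) and Mapk8, known as JNK1, was lower after TNF-α (−0.59, adjusted p = 0.0288). None of the 16 was called in a response to TNF-α in edgeR, where 2.1% and 2.35% of all genes were called higher.

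The 7 regulators of AP-1 protein turnover held Trib2, an adaptor of the ubiquitin ligase COP1, which was higher in GSTM1 KD (0.59, adjusted p = 0.0297, at the basal level and 0.63, adjusted p = 0.0276, after TNF-α) and lower after TNF-α in control KD (−0.51, adjusted p = 0.0475). This last call was lost with any 1 library left out. Trib1 was higher in GSTM1 KD after TNF-α (0.64, adjusted p = 0.0413). The other members of this list did not pass the test. The shares of all genes called higher with the knockdown were 4.6% and 7.26%, and 0.528% were called lower in the response of control KD.

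The list of 19 textbook AP-1 target genes leaned to one side in the knockdown. It was chosen with earlier results of these data known and holds Csf2, whose induction the study had reported as impaired with GSTM1 KD. Its counts are therefore a description and not an independent test. At the basal level 9 of 15 tested were lower and 0 higher in GSTM1 KD, with a median log2 fold change of −1.03, and after TNF-α 14 of 18 were lower and 0 higher, with a median of −1.11, beside the 5.62% and 8.92% of all genes called lower. Lif, a cytokine of the interleukin-6 family, was lower by 1.23 and 1.53 on the log2 scale (adjusted p = 0.0190 and 0.0108). Ccl2, a monocyte chemokine, had 22.6 and 11.3 CPM against 1.93 and 1.302 at the basal level (−3.38, adjusted p = 0.0194), and Cd44, a hyaluronan receptor, was at −0.85 (adjusted p = 0.0227). After TNF-α the smallest p belonged to Ptgs2, the inducible cyclooxygenase (−1.38, adjusted p = 0.00981), and Plau, the urokinase plasminogen activator (60.5 and 51.2 against 16.5 and 17.9 CPM, −1.73, adjusted p = 0.00981).

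In response to TNF-α, 8 of 18 tested targets rose in control KD, 6 rose with GSTM1 KD, and 0 fell in either, beside 2.1% and 2.35% of all genes called higher. With 1 library left out the counts of targets called higher were 4 to 6 and 2 to 4, and with only its own 4 libraries that of control KD was 2. Ccl2 rose by 5.93 and 8.30 on the log2 scale (adjusted p = 0.000589 and 0.000286), Plau by 2.28 and 1.61 (0.000769 and 0.00326), Lif by 1.35 and 1.08 (0.00803 and 0.0177) and Cd44 by 0.60 and 0.79 (0.0326 and 0.0103), control KD first. Without either GSTM1 KD library the count of targets called lower fell to 0 at the basal level, and to 0 (replicate 1) and 1 (replicate 2) after TNF-α. Several of these targets, such as Timp1, Plau and Cd44, are known to be expressed by fibroblasts too, whose summed markers, mostly Acta2, were lower in GSTM1 KD while the median of that list was −0.18 and −0.054, and the part of those cells was not tested.

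**Figure D4:**
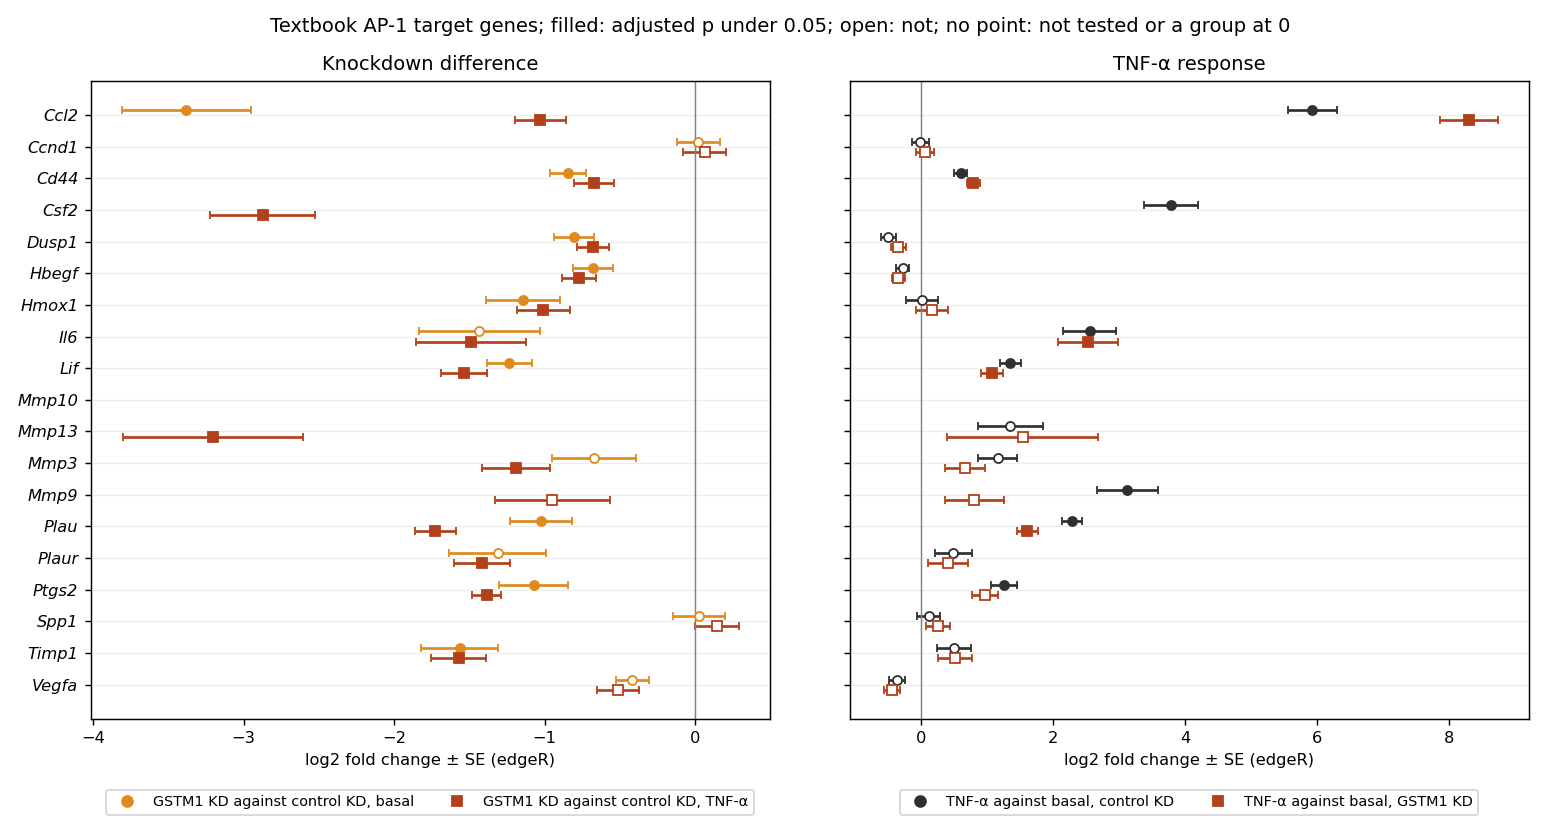
Log2 fold changes with their SE from edgeR (horizontal axes) for the 19 textbook AP-1 target genes (vertical axis), GSTM1 KD against control KD on the left and TNF-α against the basal level on the right; filled symbols passed an adjusted p of 0.05 and a missing symbol means that the gene was not tested or that a group was at 0. Filled symbols on the left, 9 and 14 in number, all lie below 0, and those on the right, 8 in control KD and 5 in GSTM1 KD, above 0, where Csf2, the other call of GSTM1 KD, is not drawn because its unstimulated libraries had 0 counts.

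For comparison, of 21 immediate early genes outside AP-1 (Dusp1 is also on the target list and Srf on the kinase list), 6 were lower and 1 higher in unstimulated GSTM1 KD cells, and 8 were lower and 1 higher in stimulated ones, beside the 5.62% and 8.92% of all genes called lower and 4.6% and 7.26% called higher. Ier5 (−0.97 and −1.18, adjusted p = 0.0160 and 0.00981) and Dusp1, a phosphatase of JNK and p38 (−0.80 and −0.68, adjusted p = 0.0270 and 0.0190), were lower in both states. Klf4 was lower at the basal level (−1.63, adjusted p = 0.0270) and Ier3 after TNF-α (−1.26, adjusted p = 0.0129). Egr3 was higher at the basal level (1.53, adjusted p = 0.0488) and Nr4a2 after TNF-α (0.93, adjusted p = 0.0396). After 6 h of TNF-α only Btg2 was higher in control KD (0.98, adjusted p = 0.0147), and Zfp36, a regulator of cytokine message decay (1.20, adjusted p = 0.00421), and Btg2 (0.81, adjusted p = 0.0310) in GSTM1 KD. With 1 library left out, 0 to 2 genes of this list were called higher in each response.

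Likeness of pattern was measured as the root mean square difference of log2 CPM over the 8 libraries, each gene centred on its mean, against 15331 other genes. The nearest to Junb were Rrad (0.21), Kcnq3 (0.21) and Relb (0.21), a NF-κB subunit, while Junb itself varied by 1.12. Relb rose after TNF-α by 2.35 in control KD (adjusted p = 0.000459) and by 2.75 in GSTM1 KD (adjusted p = 0.000268). Nearest to Jun were Map2k5 (0.034), Kif1c (0.038) and Hace1 (0.040), and nearest to Fosl1 were Plk2 (0.10), Flrt2 (0.11) and Slc16a10 (0.12). Tgfbr2 (0.065) was nearest to Fosl2, Mal2 (0.15) to Atf3, Ep400 (0.076) to Maff, Bcas3 (0.077) to Jund, Lrrc75b (0.16) to Fos, Slc2a4rg-ps (0.14) to Fosb and Slc39a4 (0.29) to Batf3. Among the members themselves the closest pair was Fosl2 and Maff, at 0.17.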

How the data were processed

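RNA was sequenced as paired reads from libraries made with a strand-keeping kit. Per the submitters' processing notes and the study's methods, the authors mapped reads to GRCm38 with STAR (version 2.5.4b) and quantified genes with RSEM (version 1.3.0). Expected counts, deposited for each gene, are estimates that carry no normalization and can be fractional. TPM, deposited by the authors beside them, adjust for gene length and served only to set levels of different genes side by side. The deposited effective lengths, in bases, entered an alternative. FPKM and plain lengths were not used. Groups and replicate numbers came from the labels, and all 8 libraries were analysed.

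Rounded expected counts were analysed with edgeR (version 4.0.16 under R version 4.3.3), using TMM factors, filterByExpr by group, the quasi-likelihood test and Benjamini-Hochberg adjustment over all genes tested, with a threshold of 0.05. The knockdown contrasts used the 4 libraries of a state. TNF-α responses and their interaction used all 8, with 1 coefficient per group. CPM divide a count by library size times the TMM factor, and likeness used log2 CPM with a prior count of 2. Totals of 17349676 to 34434633 counts set the precision; 3 counts were taken as the floor. Groups of 2 libraries are too small for an exact permutation test to reach the threshold, so p-values come from models fitted across genes, and they measure the spread between these libraries. The fits were also run on simulated counts with the same spread for every gene and no replicate effect, which cannot show how they behave in these libraries. Alternatives were DESeq2 (version 1.42.0), its size factors, library size alone, other filters, a replicate block, effective length offsets, edgeR's newer quasi-likelihood method, other sets of libraries and leaving out each library. The list counts under these were added after seeing the data.

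One further textbook target was left out of the list and is not reported here. The members and gene lists were chosen with earlier results of these data known. Named genes are the 10 members, the 3 genes nearest in pattern, and up to 3 genes per direction with the smallest p among those of a list past the threshold. Timp1, Atf2 and the marker genes were named beside these after their values were seen. Gene coordinates are from GENCODE M21, where the identifier of Fosl1 has another version than in the files. Start-site sequences are from RefSeq (GRCm38.p6), matched by symbol for 9 of 10 members; Fosl1 had no entry. Figures were drawn with matplotlib (version 3.10.9).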

Additional observations from a re-analysis of the deposited data

How the results depend on the processing

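The counts of AP-1 genes past the threshold (2 in GSTM1 KD at the basal level, 2 in GSTM1 KD after TNF-α, 2 in the response of control KD and 3 in that of GSTM1 KD) moved with several choices, and the cause was not tested. At the basal level the count was 4 with DESeq2, without a filter on low counts and with all 8 libraries. After TNF-α it was 0 with effective length offsets, and 3 with DESeq2 and without a filter, where Fosl1 was added as lower (−0.69 in both, adjusted p = 0.0264 and 0.000155). The response of control KD gave 4 with DESeq2, 7 without a filter and 1 with only its own 4 libraries, and that of GSTM1 KD gave 5 without a filter. With each library left out the counts ran from 0 to 5, 0 to 3, 1 to 2 and 1 to 1, in the same order, and the interaction stayed at 0. Over all genes the calls went from 1524 to 2492 (DESeq2), 3957 (no filter) and 2762 (all 8 libraries) at the basal level, from 2360 to 4540 (no filter) after TNF-α, from 403 to 739 (DESeq2), 1255 (no filter) and 72 (own libraries) in control KD, and from 406 to 630, 1050 and 691 in GSTM1 KD. The interaction went from 0 to 24 with DESeq2 and 134 without a filter. Library size alone changed the split of higher and lower calls from 686 and 838 to 870 and 784 at the basal level, and from 1059 and 1301 to 1350 and 1163 after TNF-α.

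Members that changed sign were not called with all libraries in the comparison concerned; with 1 control library left out, Fos at the basal level and Jund after TNF-α were called. With library size alone this was so for Jund at the basal level (0.0082), Jun in both responses (−0.0299 in control KD, −0.0274 in GSTM1 KD) and Jund in GSTM1 KD (−0.0267). Without a filter it was Fosl2 at the basal level (−0.0002), Jun in control KD (−0.0225) and Fosb in the interaction (0.0001). With length offsets it was Batf3 in GSTM1 KD after TNF-α (−0.1009) and Fosb in the interaction (0.0185), and with at least 10 counts in every library Jun in the interaction (−0.0083). With a library left out, log2 fold changes at the basal level ran from −0.0852 to 0.6776 for Fos, −0.9047 to 0.181 for Fosb, −0.0734 to 0.1139 for Fosl2, −0.2575 to 0.2525 for Jund, −0.1494 to 0.0769 for Maff and −0.1073 to 1.3132 for Batf3. After TNF-α they ran from −0.1759 to 0.6468 for Fos, −0.6215 to 0.0284 for Fosb, −0.0032 to 0.1772 for Fosl2, −0.4629 to 0.0426 for Jund and −0.4404 to 0.6902 for Batf3. The response of control KD ran from −0.0559 to 0.0684 for Jun and −0.053 to 0.4972 for Jund, and that of GSTM1 KD from −0.898 to 0.1771 for Fosb and −0.1293 to 0.1853 for Jund. The interaction ran from −0.4139 to 0.4024 for Fos, −0.4585 to 0.6115 for Fosb, −0.0361 to 0.6053 for Fosl1, −0.023 to 0.1803 for Fosl2, −0.052 to 0.073 for Jun, −0.4821 to 0.0687 for Jund and −1.2618 to 0.1616 for Batf3. Textbook targets called lower numbered 9 to 14 at the basal level and 12 to 15 after TNF-α over the alternatives that kept all libraries, chosen after seeing the data.

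The replicate number is shared by all groups, but what it marks is not stated. Deviations of same-numbered libraries from their group means correlated at 0.165 to 0.575 over the 6 pairs of groups (15332 genes, which are not independent replicates). The highest values were those between the basal level and TNF-α within a knockdown, 0.575 in control KD and 0.330 in GSTM1 KD. The main fits of the responses did not use the replicate numbers. With a replicate block the counts of AP-1 genes were 4, 3, 5 and 5 and those of all genes 4712, 4302, 988 and 808, in the order above (with Fosl1 and Jun added at the basal level, adjusted p = 0.000448 and 0.00815, and Fosl1 after TNF-α, 0.0183), and the Fos interaction was −0.0289. Depth limits Batf3, with 6 to 33 counts a library.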
